A study of Mus musculus with 6 samples.

Results

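Cytochrome P450 family 2 was followed gene by gene in mouse liver after long oral exposure to cadmium. Members were chosen by name alone: every gene of the deposited symbol table whose symbol is Cyp2, then a letter, then a number, with pseudogenes left out. This gave 40 of the 34352 genes of that table, and 8 further family genes that only the larger deposited table holds were listed at 0 in every library. The liver came from wild-type C57BL/6 mice, labelled male and 6 to 8 weeks old at the start. Control mice received 0 mg per kg per day and exposed mice 20 mg per kg per day of cadmium chloride (CdCl2) by gavage, and liver was taken on day 90. Each group held 6 mice and is represented by 3 libraries, numbered 1 to 3. The labels do not say how mice map to libraries, so p-values measure only the spread between these libraries. RNA was fragmented and exposed to an antibody against m6A, a methyl mark on RNA, and these libraries are the fraction that the labels call unbound. With this fraction alone, altered abundance of a transcript and altered binding of it by the antibody cannot be told apart.

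P450 enzymes of family 2 sit in the membrane of the endoplasmic reticulum of hepatocytes, hold a heme group, and insert an oxygen atom into drugs, steroids, fatty acids and other lipophilic compounds. They draw electrons from NADPH through P450 oxidoreductase (Por), in part with the help of cytochrome b5. In rodents the family has grown by tandem gene duplication, so that several members are near-identical neighbours, and many are expressed more in the liver of 1 sex. The nuclear receptors CAR (Nr1i3) and PXR (Nr1i2) induce some members in response to drugs, while HNF4, C/EBP and related factors keep them expressed in hepatocytes.

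Levels are given as FPKM, sequenced fragments relative to gene length and to library total, and differences as log2 fold changes of FPKM + 1, cadmium minus control. Depth lay between 42115960 and 68587128 recovered reads. A gene was tested if 3 or more of the 6 libraries had an FPKM of 1 or more, and called if its adjusted p in limma's test over all 9908 tested genes was below 0.05. Among pairs from different groups, control replicate 1 and cadmium replicate 2 had the highest correlation of their deviations from the group mean (0.28). Results that change without these libraries are given in that form too. All libraries went against the label of male mice: Xist, which coats the inactive X chromosome, had 21.1, 19.7 and 25.8 FPKM in controls and 35.5, 27.1 and 27.7 FPKM in cadmium. Of 1562 genes on the Y chromosome, 0 reached 1 FPKM in any library. The groups are therefore described as libraries labelled male, and no library could be set aside on this ground without losing all of them. Hepatocyte markers were abundant, with a summed level of 7 matched markers from 15371 to 24628 FPKM.

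Before the values, the upstream sequence of 6 members is shown, because these near-identical neighbours include 4 of the called members and 2 that were not called. Cyp2a5 and Cyp2a4 lie on chromosome 7, and Cyp2c67, Cyp2c68, Cyp2c40 and Cyp2c69 lie side by side on the minus strand of chromosome 19. Each sequence is taken from RefSeq on GRCm38.p6 (mm10), read 5′ to 3′ on the gene's strand, and begins 150 bases before the RefSeq start. It ends just before the more upstream of the RefSeq and GENCODE starts. The windows are chr7:26835189-26835304 for Cyp2a5 and chr7:26307042-26307168 for Cyp2a4, both on the plus strand. Those on the minus strand are chr19:39812815-39812964 for Cyp2c40, chr19:39886800-39886919 for Cyp2c69, chr19:39649052-39649192 for Cyp2c67 and chr19:39741102-39741251 for Cyp2c68. Capitals mark CAAAGTCC, a form of the HNF4 recognition sequence, and TTGCNNAA, a form of the C/EBP recognition sequence, where they lie wholly inside the printed bases.
Cyp2a5: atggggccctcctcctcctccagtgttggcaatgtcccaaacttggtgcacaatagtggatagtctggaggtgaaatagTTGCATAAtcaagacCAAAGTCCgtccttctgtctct
Cyp2a4: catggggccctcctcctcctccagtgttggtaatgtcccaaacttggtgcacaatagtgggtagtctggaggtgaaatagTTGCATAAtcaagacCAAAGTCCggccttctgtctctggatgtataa
Cyp2c40: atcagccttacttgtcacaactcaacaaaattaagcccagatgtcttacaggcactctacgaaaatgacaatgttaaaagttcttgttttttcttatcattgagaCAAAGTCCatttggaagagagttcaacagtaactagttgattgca
Cyp2c69: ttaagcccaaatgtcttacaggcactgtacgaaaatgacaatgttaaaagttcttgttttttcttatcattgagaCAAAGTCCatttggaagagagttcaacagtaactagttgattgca
Cyp2c67: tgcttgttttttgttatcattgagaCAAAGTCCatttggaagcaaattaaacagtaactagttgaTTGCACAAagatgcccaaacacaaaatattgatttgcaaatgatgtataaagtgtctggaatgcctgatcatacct
Cyp2c68: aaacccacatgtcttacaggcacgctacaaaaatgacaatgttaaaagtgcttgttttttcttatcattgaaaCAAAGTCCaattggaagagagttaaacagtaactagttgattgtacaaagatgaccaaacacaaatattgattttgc

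Over the aligned upstream bases of windows of 250 bases, Cyp2a5 and Cyp2a4 were identical at 245 of 249 positions (98.39%), and Cyp2c40 and Cyp2c69 at 217 of 220 (98.64%). Both motifs were searched on both strands of the 250 bases before each start, and the 2 motifs do not overlap in these windows. Forms of the D-box (TTANGTAA), STAT5 (TTCNNNGAA) and nuclear receptor half-site (AGGTCA) sequences were searched in the same way. Of all windows 2.06%, 7.02% and 14.0% held them, and of the 34 member windows 1 (Cyp2c38), 1 (Cyp2j11) and 8. None of these lay in the 250 bases upstream of the 6 members shown. CAAAGTCC was present in 393 of 32851 RefSeq windows (1.2%) and in 7 of the 34 windows of 33 matched members: the 6 shown and Cyp2c70. TTGCNNAA was present in 3142 windows (9.56%) and in 10 member windows, which include Cyp2a4, Cyp2a5, Cyp2c67 and Cyp2c69. In Cyp2a5 CAAAGTCC lies at -56 to -49 and TTGCATAA at -71 to -64, and in Cyp2a4 the same letters lie 1 base nearer to the start. In Cyp2c69 TTGCACAA lies at -35 to -28, across the printed end at -31, and in Cyp2c40 it crosses the RefSeq start. The uncalled Cyp2a4 has both motifs of the called Cyp2a5. The uncalled Cyp2c68 has the CAAAGTCC of its 3 called neighbours but no TTGCNNAA, which Cyp2c67 and Cyp2c69 hold upstream and Cyp2c40 holds across its start. These matches describe the sequence and say nothing about binding.

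The family was strongly expressed, and most of its members did not pass the test. Of the 40 members, 32 were tested. The other 8 (Cyp2g1, Cyp2j9, Cyp2t4, Cyp2d12, Cyp2d34, Cyp2s1, Cyp2j8 and Cyp2j11) did not exceed 1.07 FPKM in any library. Mean levels were above 100 FPKM for 11 members, 10 to 100 FPKM for 15 and 1 to 10 FPKM for 6. The test called 5 members: Cyp2a5 fell, and Cyp2c40, Cyp2c69, Cyp2c67 and Cyp2j6 rose. Over all tested genes 7.86% were called higher and 1.82% lower (9.68% in either direction), so the family's 4 and 1 of 32 are given as counts and nothing about the family as a whole is read from them. The median log2 fold change of the 32 members was 0.07 beside 0.09 over all tested genes. The other 44 cytochrome P450 genes had 28 tested, with 1 called higher (Cyp20a1), 1 lower (Cyp39a1) and a median of 0.04.

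The groups did not overlap in FPKM for 7 members that were higher and 1 that was lower in cadmium, against 26.4% and 7.24% of all tested genes. With the replicate number, which the labels give as the batch, as a block in the fit, 0 members were called higher and 1 lower, against 1.86% and 0.646% of all tested genes (2.5% in either direction). The higher calls also depended on scaling. Over all tested genes the median log2 fold change of 0.09 became -0.01 with quantile normalization and -0.06 when the deposited log2 values were fitted. Calls over all genes split into 779 higher and 180 lower in FPKM, 347 and 298 after quantile normalization, 381 and 493 in the deposited values, and 380 and 489 with limma's voom on the recovered reads. Under the last 2 of these the members called higher were Cyp2c40 and Cyp2c69, and Cyp2a5 was the member called lower. Without control replicate 1 and cadmium replicate 2 the called members were Cyp2a5 (adjusted p = 0.0166), Cyp2c40 (0.0390) and Cyp2c55 (0.0120).

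**Figure D1:**
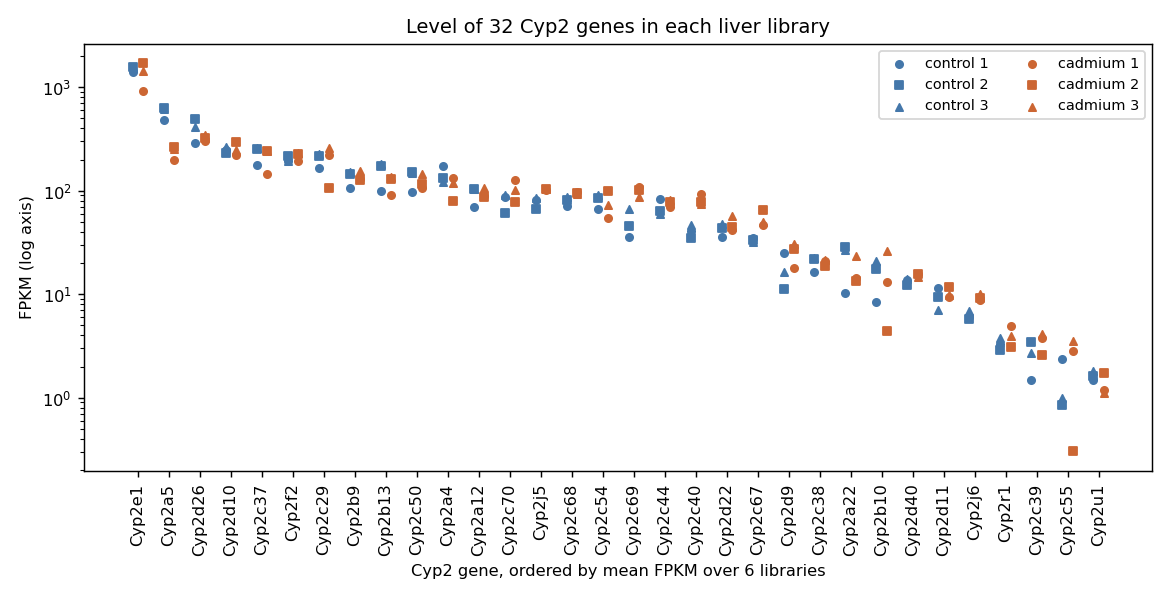
FPKM (log axis) of the 32 tested Cyp2 genes in each of the 6 liver libraries, ordered by mean level, with blue for control, orange for cadmium and circle, square and triangle for replicates 1, 2 and 3. Cyp2e1 stands highest in every library, and the orange points of Cyp2a5 lie below all of its blue points.

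The plot of levels by library shows how few members make up the family's RNA. Cyp2e1, which oxidises ethanol and small solvents, had 1394, 1579 and 1573 FPKM in controls and 914, 1699 and 1430.5 FPKM in cadmium. The groups overlapped, and cadmium replicate 1 alone was low (adjusted p = 0.647, limma). Cyp2e1 held 31.5% to 33.8% of the family's FPKM in controls and 25.4% to 37.3% in cadmium. In controls the next level was that of Cyp2a5, which in cadmium lay below Cyp2d26 in every library. Cyp2d26 stood at 291, 489 and 413 FPKM in controls and 302, 326 and 348 FPKM in cadmium (adjusted p = 0.490). The 3 members that came next, Cyp2d10, Cyp2c37 and Cyp2f2, overlapped one another in cadmium, so their order is not set by these libraries.

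Cyp2d10, a member of the subfamily that in humans clears many drugs, had 245, 233 and 266 FPKM in controls and 222, 297 and 245 FPKM in cadmium (adjusted p = 0.933). Cyp2c37, an arachidonic acid oxygenase, had 178, 255 and 259 FPKM against 145, 243 and 239.8 FPKM (adjusted p = 0.746). Cyp2f2, known for activating naphthalene, had 195, 218 and 195 FPKM against 191, 228 and 229 FPKM (adjusted p = 0.745). In each of these 3 genes the control and cadmium libraries overlapped. Replicate 1 was the lowest of its group for Cyp2c37 in controls and in cadmium alike. Cyp2c50, a close relative of Cyp2c37, had 96.8, 153 and 149 FPKM against 106, 116 and 146 FPKM (adjusted p = 0.822).

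The summed level of all 40 members was 4127, 4965 and 4991 FPKM in controls and 3603, 4554 and 4536 FPKM in cadmium. The groups overlapped, at 4694 ± 492 and 4231 ± 544 FPKM (SD, n = 3), and in each group replicate 1 was the lowest. In recovered reads the family took 1.05% to 1.32% of a control library and 0.952% to 1.18% of a cadmium library. Its 10 most abundant members held 80.7% ± 1.89 of the family's FPKM in controls and 74.5% ± 3.93 in cadmium. In bulk liver, fewer cells of a type and less RNA per cell cannot be told apart.

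**Figure D2:**
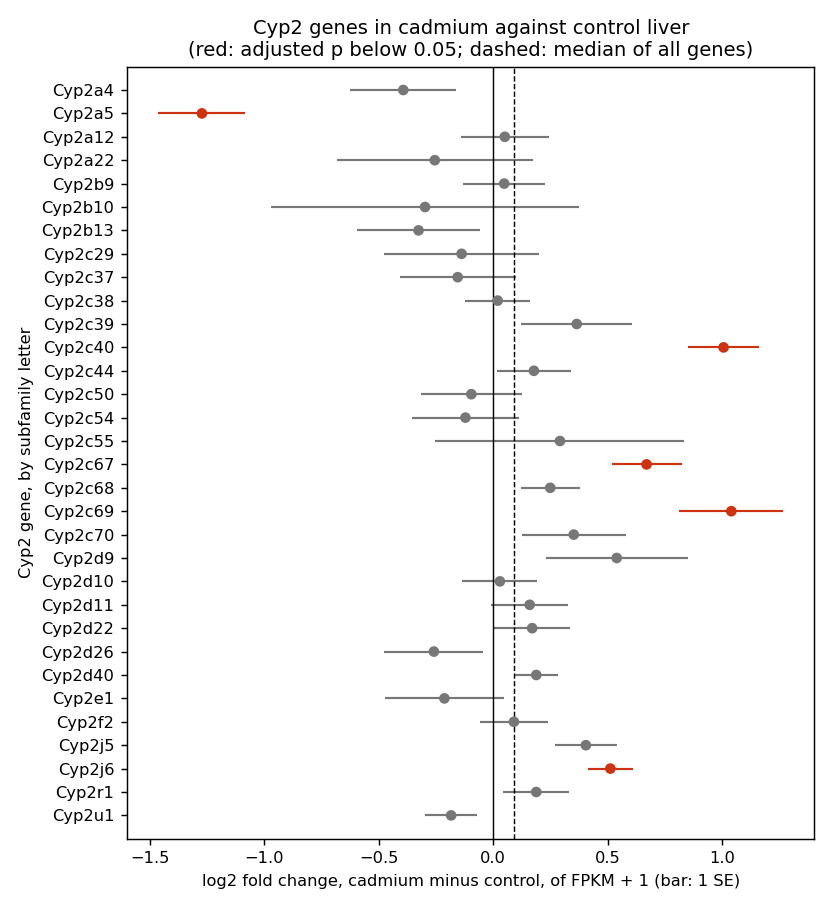
Log2 fold change of FPKM + 1, cadmium minus control, with 1 standard error for each of the 32 tested Cyp2 genes, grouped by subfamily letter, with called genes in red and the median of all tested genes (0.09) as a dashed line. Cyp2a5 lies at -1.27, and the 4 red points to the right run from 0.51 (Cyp2j6) to 1.04 (Cyp2c69).

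The plot of fold changes by subfamily places the 1 fall among the Cyp2a genes and the rises among Cyp2c and Cyp2j genes. Of the 4 Cyp2a genes 0 were called higher and 1 lower, with a median log2 fold change of -0.32. Of 3 Cyp2b genes and 6 tested Cyp2d genes none was called, with medians of -0.30 and 0.16. Of 13 Cyp2c genes 3 were called higher, with a median of 0.25 in FPKM that was 0.02 when the deposited log2 values were fitted and 0.00014 with voom. The 2 tested Cyp2j genes both had positive log2 fold changes, of which 1 was called. Relative to the median of all genes the Cyp2a median was lower and the Cyp2j median higher under each scaling, at -0.45 and 0.37 in the deposited values. The Cyp2b median was likewise lower under each scaling, at -0.45 in the deposited values, so a low median was not particular to Cyp2a.

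Cyp2a5 is the mouse coumarin hydroxylase and also oxidises nicotine and bilirubin. Its levels were 477, 629 and 622 FPKM in controls and 199, 262 and 252 FPKM in cadmium. Every cadmium library lay below every control library. The mean fell from 576 ± 85.7 to 238 ± 33.6 FPKM (SD, n = 3). The ratio of the means was 0.412 and the log2 fold change was -1.27 ± 0.19 (SE; adjusted p = 0.0133, limma). Within the 3 batches the difference was -1.26, -1.26 and -1.30. The call held with the replicate block (adjusted p = 0.0433) and was lost without cadmium replicate 3 (0.0606). Between 21478 and 79721 reads per library stood behind these values. The gene is ENSMUSG00000005547, at chr7:26835305-26843548 on the plus strand in GENCODE M21.

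Cyp2a4, the steroid hydroxylase whose coding sequence is 98.45% identical to that of Cyp2a5, behaved less clearly. It had 174, 134 and 121 FPKM in controls and 133, 79.0 and 118 FPKM in cadmium, groups that overlapped (log2 fold change -0.39; adjusted p = 0.323). The ratio of Cyp2a5 to Cyp2a4 was 2.74, 4.70 and 5.16 in controls and 1.50, 3.31 and 2.14 in cadmium. These ratios overlapped, and the difference gave p = 0.2 in an exact two-sided permutation test whose smallest possible p is 0.1. Within each of the 3 batches the ratio was lower in cadmium. Whether the 2 genes responded differently cannot be settled with 3 libraries per group.

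Reads from shared stretches can be split between the 2 genes. Of the 150-base windows of the Cyp2a5 transcript 5.79% occur without mismatch in another gene (Cyp2a4 or the pseudogene Cyp2a21-ps), and 4.22% of those of Cyp2a4 do. The summed reads of Cyp2a4 and Cyp2a5, which do not depend on a split between them, were 1549, 1875 and 1851 RPM (recovered reads scaled to the library total) in controls and 794, 837 and 879.6 RPM in cadmium. The sum kept the groups apart, and the ratio of its means was 0.476. Cyp2a21-ps, chosen after its values were seen, had 22.7, 22.3 and 25.5 FPKM against 7.29, 9.40 and 10.1 FPKM (log2 fold change -1.31; adjusted p = 0.00688). The remaining genes of the subfamily, Cyp2a12 and Cyp2a22, had adjusted p-values of 0.899 and 0.754.

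**Figure D3:**
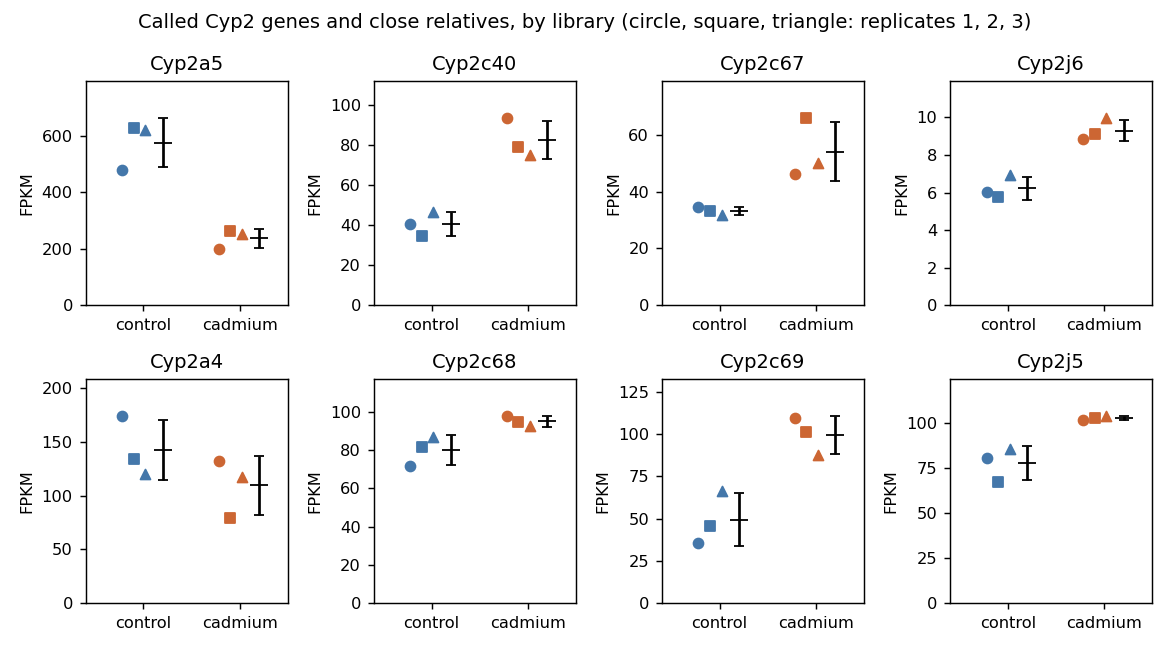
FPKM in each library of the 5 called genes (Cyp2a5, Cyp2c40, Cyp2c67, Cyp2c69, Cyp2j6) and of a close relative of each (Cyp2a4, Cyp2c68, Cyp2j5), on axes that start at 0, with group mean and SD (n = 3) as a bar beside the points and circle, square and triangle for replicates 1, 2 and 3. The groups are apart in all panels except Cyp2a4.

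The plot of called genes and their relatives sets these values side by side. Cyp2c40, an arachidonic acid hydroxylase expressed more in female liver, had 40.5, 34.5 and 46.6 FPKM in controls and 93.1, 78.6 and 75.0 FPKM in cadmium. Every cadmium library lay above every control library. The mean rose from 40.5 ± 6.02 to 82.2 ± 9.58 FPKM (SD, n = 3; log2 fold change 1.01 ± 0.15 SE; adjusted p = 0.0133, limma). Within the batches the difference was 1.18, 1.16 and 0.67. The call was lost with the replicate block (adjusted p = 0.0515) and without cadmium replicate 3 (0.0547).

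Cyp2c69, also expressed more in female liver, had 35.6, 45.9 and 66.4 FPKM in controls and 109.6, 102 and 87.7 FPKM in cadmium. The groups were apart. Batch 1 held the lowest control and the highest cadmium library, and the difference was 1.59 there against 1.13 and 0.40 in the other batches. The mean rose from 49.3 ± 15.7 to 99.6 ± 11.1 FPKM (SD, n = 3; log2 fold change 1.04 ± 0.23 SE; adjusted p = 0.0338, limma). The call was lost with the replicate block (0.0968) and in 5 of the 6 fits without 1 library. It was kept without control replicate 3 (0.0320).

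Cyp2c67 had 34.7, 33.2 and 31.8 FPKM in controls and 46.2, 65.8 and 50.2 FPKM in cadmium. Its controls lay close together below every cadmium library, of which replicate 2 was the highest. The mean rose from 33.2 ± 1.49 to 54.03 ± 10.3 FPKM (SD, n = 3; log2 fold change 0.67 ± 0.15 SE; adjusted p = 0.0375, limma). The call was lost in 13 of the 15 alternatives tried, more than for the other 4 called members. Among these were all 6 fits without 1 library (adjusted p = 0.0595 to 0.116), the replicate block (0.0821), quantile normalization (0.0772) and the deposited log2 values (0.0759).

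Cyp2c68, which lies between Cyp2c67 and Cyp2c40, had 71.5, 81.8 and 86.8 FPKM in controls and 97.8, 94.7 and 92.5 FPKM in cadmium. Its groups did not overlap either, and it did not pass the test (log2 fold change 0.25 ± 0.13 SE; adjusted p = 0.262, limma). The ratio of Cyp2c40 to Cyp2c68 was 0.567, 0.422 and 0.537 in controls and 0.952, 0.830 and 0.810 in cadmium (p = 0.1, exact two-sided permutation test, the smallest possible). The ratio of Cyp2c69 to Cyp2c68 was likewise apart between groups, at 0.499 to 0.765 and 0.947 to 1.12 (p = 0.1, the same exact test). That of Cyp2c67 to Cyp2c68 overlapped (p = 0.2, the same exact test). With 3 libraries per group and 5 such ratios, none can reach 0.05, and the pairs were chosen after the values were seen.

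The levels of these 4 neighbours are uncertain one by one. Of the 150-base windows of the Cyp2c40 transcript 29.1% occur without mismatch in Cyp2c69, Cyp2c68 or Cyp2c67. The shares were 22.5% for Cyp2c69, 13.0% for Cyp2c67 and 8.83% for Cyp2c68. The summed reads of the 4 genes were 392, 423 and 510.0 RPM in controls and 772, 751 and 664 RPM in cadmium. This sum does not depend on which of the 4 genes a shared read was given to, and it kept the groups apart, at 442 ± 61.3 and 729 ± 56.9 RPM (SD, n = 3).

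Cyp2j6, of the subfamily known for arachidonic acid epoxygenases, had 6.04, 5.75 and 6.91 FPKM in controls and 8.85, 9.10 and 9.95 FPKM in cadmium. Every cadmium library lay above every control library. The mean rose from 6.23 ± 0.605 to 9.30 ± 0.576 FPKM (SD, n = 3; log2 fold change 0.51 ± 0.10 SE; adjusted p = 0.0240, limma). The call was lost with the replicate block (0.0579), in the deposited log2 values (0.0618) and in 4 of the 6 fits without 1 library, with the highest adjusted p, 0.112, without cadmium replicate 3. No 150-base window of its transcript occurs in another gene. Its neighbour Cyp2j5, an arachidonic acid epoxygenase, had 80.8, 67.3 and 85.6 FPKM in controls and 102, 103 and 104 FPKM in cadmium, groups that were apart (log2 fold change 0.40; adjusted p = 0.107). The ratio of Cyp2j6 to Cyp2j5 was 0.0747 to 0.0855 in controls and 0.0869 to 0.0956 in cadmium (p = 0.1, exact two-sided permutation test).

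In the authors' deposited table the same 5 members passed a false discovery rate of 0.05, with log2 fold changes of -1.46 for Cyp2a5, 0.84 for Cyp2c40, 0.88 for Cyp2c69, 0.51 for Cyp2c67 and 0.40 for Cyp2j6. The authors' deposited table rests on the same libraries. The direction of each of the 5 was the same in all 15 alternatives tried.

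**Figure D4:**
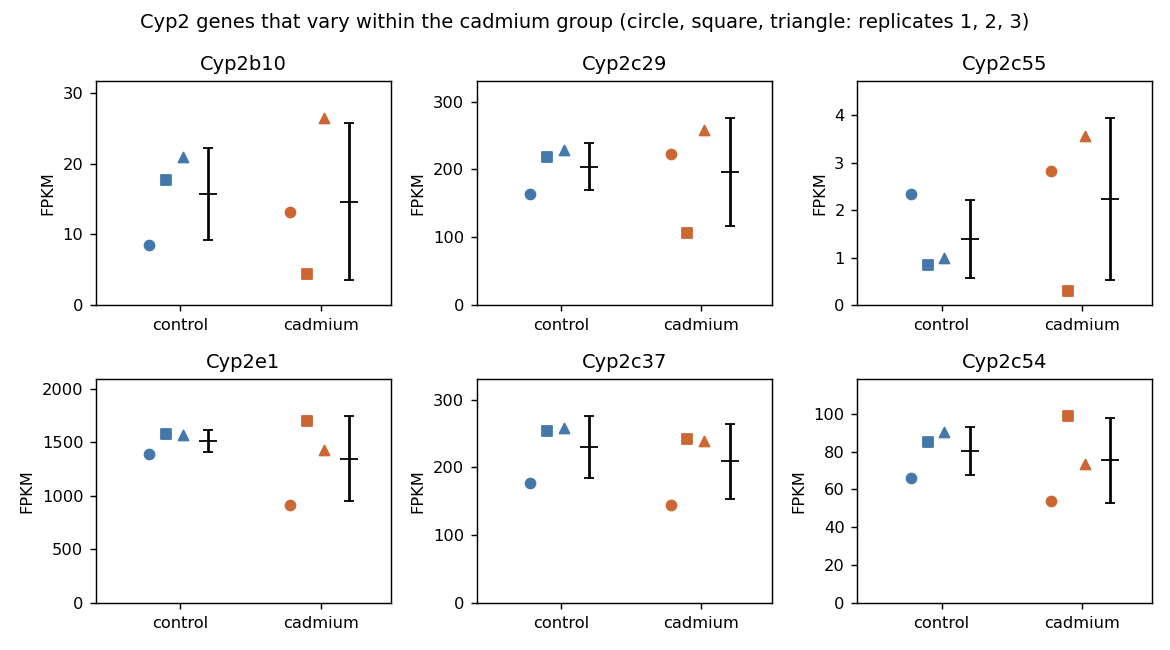
FPKM in each library of 6 uncalled Cyp2 genes, chosen after their values were seen because they vary within the cadmium group, on axes that start at 0, with mean and SD (n = 3) as a bar and circle, square and triangle for replicates 1, 2 and 3. Cadmium replicate 2 is lowest for Cyp2b10, Cyp2c29 and Cyp2c55, and cadmium replicate 1 is lowest for Cyp2e1, Cyp2c37 and Cyp2c54.

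Several members that were not called differed more between cadmium libraries than between groups, as the plot of genes that vary within the cadmium group shows. Cyp2b10, the classical target of CAR, had 8.45, 17.6 and 20.9 FPKM in controls and 13.2, 4.36 and 26.4 FPKM in cadmium (adjusted p = 0.821). Cyp2c29, also inducible through CAR and PXR, had 164, 219 and 228 FPKM against 223, 106 and 258 FPKM (adjusted p = 0.833). Cyp2c55 had 2.34, 0.848 and 1.00 FPKM against 2.82, 0.302 and 3.55 FPKM (adjusted p = 0.781). All 3 were lowest in cadmium replicate 2, and all 3 were highest in cadmium replicate 3. Without control replicate 1 and cadmium replicate 2, Cyp2c55 was called higher (log2 fold change 1.12, adjusted p = 0.0120, limma). The libraries left out were its highest control (2.34 FPKM) and its lowest cadmium library (0.302 FPKM), so no rise is read from this fit. Cyp2c55 was the only uncalled member that any of the 15 alternatives called.

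Gstm3, a glutathione transferase induced through the same receptors and not a member, had 48.9, 17.9 and 66.1 FPKM in cadmium, again lowest in replicate 2. The other listed targets of these receptors outside the family were split. Abcc2, Ces2a and Gadd45b were also lowest in cadmium replicate 2, and Cyp3a11, Abcc3, Abcb1a and Ugt1a1 were lowest in cadmium replicate 1. Further genes were lowest in cadmium replicate 1 as well. Cyp2c54 had 53.96, 98.8 and 73.3 FPKM in cadmium beside 65.9, 85.0 and 90.1 FPKM in controls. Oat, a pericentral enzyme that is not a member, had 186, 321 and 318 FPKM in cadmium. Over all 32 tested members the lowest cadmium library was replicate 1 for 16, replicate 2 for 11 and replicate 3 for 5.

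Some members are known to be expressed more in female liver, and not all of those named here were called. Cyp2b9 had 106, 146 and 150.1 FPKM in controls and 130.2, 128 and 155 FPKM in cadmium (adjusted p = 0.897). Cyp2b13 had 100.2, 173 and 183 FPKM against 90.9, 129.6 and 136 FPKM (adjusted p = 0.484). Cyp2a4 was not called and Cyp2c40 and Cyp2c69 rose, as given above. Cyp2d9, a steroid hydroxylase expressed more in male liver, had 25.0, 11.3 and 16.3 FPKM in controls and 18.0, 27.6 and 30.3 FPKM in cadmium, groups that overlapped (adjusted p = 0.320). Of the members with specialised roles, Cyp2r1, a vitamin D hydroxylase, had 3.33, 2.91 and 3.75 FPKM against 4.89, 3.12 and 3.90 FPKM (adjusted p = 0.449). Cyp2u1, a fatty acid hydroxylase, had 1.49, 1.63 and 1.83 FPKM against 1.19, 1.74 and 1.11 FPKM (adjusted p = 0.348).

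The 7 uncalled members not yet given were Cyp2c38, Cyp2c39, Cyp2c44, Cyp2c70, Cyp2d11, Cyp2d22 and Cyp2d40, and their adjusted p-values ran from 0.264 to 0.949. Cyp2c70, which forms the muricholic acids of rodent bile, had 86.6, 60.6 and 90.6 FPKM in controls and 126, 77.7 and 102 FPKM in cadmium, groups that overlapped (adjusted p = 0.367). Cyp2d22, often set beside the human drug enzyme of its subfamily, had 35.5, 43.3 and 47.6 FPKM against 41.6, 44.8 and 56.4 FPKM, which also overlapped (adjusted p = 0.557). Cyp2d40 was the only 1 of these 7 whose groups were apart, at 12.4 to 14.0 FPKM in controls and 14.7 to 15.8 FPKM in cadmium (log2 fold change 0.19; adjusted p = 0.264). At this number of libraries such small differences were not detectable, which does not show that these members were unaffected.

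Of the 6 electron partners 0 were called higher and 1 lower. Beside the counts of this and the later lists stand the shares over all tested genes, 7.86% called higher and 1.82% lower. With the replicate block these shares were 1.86% and 0.646%. Por, the reductase on which all microsomal P450 enzymes depend, had 146, 154 and 142 FPKM in controls and 48.5, 65.4 and 56.7 FPKM in cadmium. Every cadmium library lay below every control library. The mean fell from 147 ± 5.81 to 56.9 ± 8.43 FPKM (SD, n = 3; log2 fold change -1.37 ± 0.15 SE; adjusted p = 0.00739, limma), and the call held in all 15 alternatives. Cyb5a, the microsomal cytochrome b5, had 113, 129.6 and 134 FPKM against 91.1, 119 and 124 FPKM, groups that overlapped (adjusted p = 0.523). In the heme list, which covers synthesis and breakdown of the P450 cofactor, 1 of 11 genes was called higher (Hmox1, heme oxygenase) and 1 lower (Alas1, which starts heme synthesis). Alas1 had 108, 131 and 107 FPKM in controls and 5.17, 18.2 and 7.38 FPKM in cadmium (adjusted p = 0.0114), and its call was lost without cadmium replicate 3 (0.0547). Hmox1 had 2.47, 4.72 and 3.36 FPKM against 5.75, 7.44 and 7.96 FPKM (adjusted p = 0.0402), and its call was lost in 5 of the 6 fits without 1 library.

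**Figure D5:**
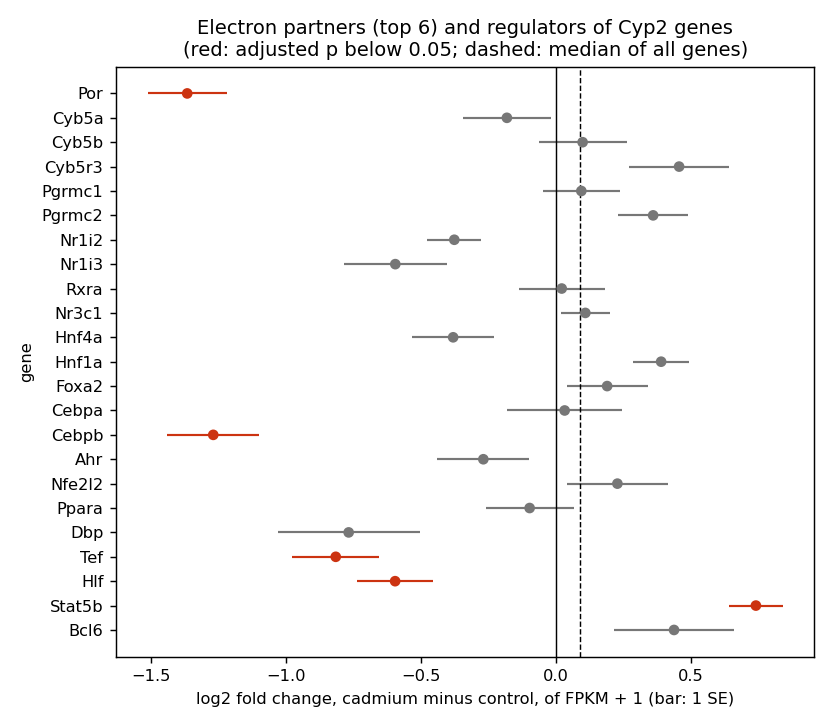
Log2 fold change of FPKM + 1, cadmium minus control, with 1 standard error, for 6 electron partners (top) and 17 regulators of Cyp2 genes, with called genes in red and the median of all tested genes (0.09) as a dashed line. Por (-1.37) and Cebpb (-1.27) lie farthest to the left and Stat5b (0.74) farthest to the right.

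Of the 17 regulators in the plot of partners and regulators, 1 was called higher and 3 lower, against 7.86% and 1.82% of all tested genes. Their median log2 fold change was -0.10. Cebpb, a C/EBP factor of the acute phase response, had 81.8, 107 and 109.6 FPKM in controls and 34.9, 46.9 and 40.0 FPKM in cadmium (log2 fold change -1.27; adjusted p = 0.00994). Its groups were apart, and the call was lost without cadmium replicate 3 (0.0511). Stat5b, which relays the growth hormone pulses behind sex differences of liver P450 genes, had 8.11, 7.28 and 7.46 FPKM against 12.3, 13.4 and 14.5 FPKM (log2 fold change 0.74; adjusted p = 0.0101). The call of Stat5b was lost without cadmium replicate 3 (0.0547).

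Tef and Hlf, circadian factors of the PAR bZIP family that drive P450 genes, were called lower. Tef had 19.9, 17.5 and 19.2 FPKM in controls and 8.36, 13.2 and 9.72 FPKM in cadmium (log2 fold change -0.82; adjusted p = 0.0258, and 0.0750 with the replicate block). Hlf had 4.77, 6.85 and 6.54 FPKM against 3.32, 4.19 and 3.41 FPKM (log2 fold change -0.60; adjusted p = 0.0406, and 0.0584 with the block). Both calls were lost in 5 of the 6 fits without 1 library. The labels used here give no time of day for tissue collection.

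The receptors CAR and PXR did not pass the test in the main fit. CAR (Nr1i3) had 27.1, 42.2 and 30.5 FPKM in controls and 19.2, 25.7 and 19.5 FPKM in cadmium, groups that were apart (log2 fold change -0.60; adjusted p = 0.0961, and 0.0293 in the deposited log2 values). PXR (Nr1i2) had 16.1, 17.6 and 15.4 FPKM against 12.2, 13.0 and 11.8 FPKM, also apart (log2 fold change -0.38; adjusted p = 0.0568, and 0.0135 in the deposited log2 values). CAR was called lower in 3 of the 15 alternatives. These include voom (adjusted p = 0.0273) and the fit without control replicate 1 and cadmium replicate 2 (0.0457). PXR was called lower in 4 of the 15, which include voom (0.0143) and quantile normalization (0.0397). Of 8 genes outside the family that these receptors induce, 1 was called lower (Abcb1a, a drug efflux pump; adjusted p = 0.0284) and 0 higher, and with the replicate block none was.

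Position along the liver lobule was described through genes outside the family. Of 10 pericentral genes 1 was called higher (Rhbg) and 0 lower, with a median log2 fold change of 0.12. Of 10 periportal genes 1 was called higher (Cdh1) and 1 lower (Asl), with a median of -0.12, and with the replicate block none of the genes of either list was called. Cyp2e1, Cyp2c29 and Cyp2a5 are all known as pericentral genes, and only Cyp2a5 was called among them.

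Among markers of other liver cells, only the summed levels of the stellate list and of the Kupffer cell and macrophage list were apart between groups. Stellate cell markers had 5 of 6 called higher (2 with the replicate block), and their summed level was 12.1 to 19.3 FPKM in controls and 29.1 to 32.4 FPKM in cadmium. Kupffer cell and macrophage markers had 3 of 7 tested called higher (2 with the block), with sums of 34.2 to 56.5 and 67.6 to 79.6 FPKM. Endothelial markers had 1 of 6 called higher (0 with the block), with overlapping sums of 18.2 to 27.6 and 25.9 to 34.1 FPKM. Cholangiocyte markers summed to 6.22 to 9.96 and 7.55 to 25.6 FPKM, with 0 called of 1 tested. Lymphocyte markers stayed at or below 1.56 FPKM in sum. Pancreas and intestine markers had 0 called of 2 tested, with Cpa1, Pnlip and Prss2 at 0, and kidney markers were untested with Kap, Slc22a6 and Slc34a1 at 0. Of 7 hepatocyte markers 1 was called higher (Fgb, fibrinogen; 0 with the block) and 0 lower, and the sums, 15371 to 23279 FPKM in controls and 16019 to 24628 FPKM in cadmium, overlapped. The part of these cells in the changes of Cyp2 genes was not tested.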

How the data were processed

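The libraries are the input fraction of liver RNA split by an m6A antibody, built with the Ovation SoLo kit and, per the labels' protocols, read in pairs of 150 bases. The genome was mm10. Tools in the submitters' processing notes included STAR 2.7.1a, cutadapt 1.1.8, MACS2 2.1.1, SAMtools 1.3.1 and DESeq2 4.1.0. As given here, these notes name no roles. The authors deposited FPKM for 55335 genes, and a table of log2 values for 34352 genes with symbols and the authors' own fold changes, p-values and false discovery rates. Which counter was used and whether it used strand is not given in the sources used here. DESeq2 is named there, but not as the source of the authors' p-values. Undoing the authors' log2 values and dividing by the step of each library gave whole reads for 100% of values within 0.05 of a read: 59095817, 50117621 and 42476574 for the controls in order of number, then 42115960, 68587128 and 65662619 for the cadmium libraries. No sample columns were left unused.

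From these, limma 3.58.1 in R 4.3.3 was fitted to log2(FPKM + 1) as a two-sided test, with its trend and robust options on, for the 9908 genes that reached an FPKM of 1 in 3 or more libraries. Adjustment was by Benjamini-Hochberg over all 9908 genes, and the scale understates changes of low genes. The script was tested on simulated data with known changes. The second table holds log2 values, so no count model was the main test, and voom on the recovered reads was an alternative. The others were a pseudocount of 0.1, 2 filters on low values, quantile normalization, the deposited log2 values, the replicate block, each library left out, control replicate 1 and cadmium replicate 2 left out together, and no variance trend.

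Replicate numbers are batches in the labels, each with 1 control and 1 cadmium library, which is the source of the pairing. Same-numbered libraries had correlations of -0.21, -0.23 and -0.02 in their deviations from the group mean, and other pairs -0.10 to 0.28. Members and lists were chosen with earlier results of these data known. Values are named for called members, the 10 of highest mean FPKM, those with an adjusted p from 0.05 to 0.10 (none) and the most abundant tested member of each subfamily, and for called genes of the lists with Por, Cyb5a, Nr1i2 and Nr1i3. Other members were named after their values were seen. Lists covered electron partners, regulators, CAR and PXR targets, heme, zonation, sex-predominant genes and cell type markers. The values of 1 gene of these lists are not reported here.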

Additional observations from a re-analysis of the deposited data

How the results depend on the processing

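None of the 5 called members changed sign in the 15 alternatives, and 14 of the 27 uncalled ones did in at least 1, without being called there. Of these 27, Cyp2c55 was called in 1. The number of genes called in all, 959, was 139 with every gene of FPKM above 0 in 3 libraries tested (26999 genes), 204 with a mean FPKM of at least 5 (3831 genes), 248 with the replicate block, and 101 (without cadmium replicate 3) to 781 (without control replicate 1) when single libraries were left out. The number of members called higher, 4, was 0 with the wider filter, 2 in the deposited log2 values, 2 with voom, 0 with the replicate block, 2 without control replicate 1 and cadmium replicate 2 together, and 0 (without cadmium replicate 3) to 3 (without control replicate 3) with single libraries left out. The number called lower, 1, was 0 with the wider filter and 0 to 1 with single libraries left out, again 0 without cadmium replicate 3. The wider filter adds genes to the adjustment and also to the fit from which limma estimates variances. With it the adjusted p of Cyp2a5 was 0.0587 at the same fold change. The members' median, 0.07, was -0.11 on the deposited scale and -0.13 with voom, where the median of all genes was -0.06 in each. The causes of these shifts were not tested. The pairing by replicate number, given as batch, ended the calls of Cyp2c40, Cyp2c69, Cyp2c67 and Cyp2j6 and kept that of Cyp2a5. Of the called members Cyp2j6 had the fewest reads, 1269 to 2858 per library, and the uncalled Cyp2c55 had 51 to 565. The effect of depth on the calls was not tested.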

Other observations

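Genes outside the family that are known to be expressed more in female or in male liver were listed as a setting for the sex-predominant Cyp2 members. Of 10 tested female-predominant genes 2 were called higher and 0 lower. A1bg, a plasma protein gene, had 1.02, 0.466 and 1.29 FPKM in controls and 23.8, 14.4 and 36.8 FPKM in cadmium (log2 fold change 3.69; adjusted p = 0.00884, limma, and 0.0110 with the replicate block). Sult3a1, a sulfotransferase, had 7.03, 5.87 and 10.4 FPKM against 29.0, 43.7 and 31.3 FPKM (log2 fold change 2.03; adjusted p = 0.00843, and 0.0481 with the block). In both genes every cadmium library lay above every control library, and both calls held in all 6 fits without 1 library.

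Values of 2 uncalled genes of high mean FPKM on that list follow. Sult2a1 had 5.61, 172 and 122 FPKM in controls and 43.3, 47.5 and 43.3 FPKM in cadmium (adjusted p = 0.949). It was called lower without control replicate 1 (adjusted p = 0.0122, limma), and without control replicate 1 and cadmium replicate 2 (0.0142). Cyp3a41a had 3.32, 59.5 and 17.6 FPKM against 59.1, 74.2 and 53.3 FPKM (adjusted p = 0.293). Control replicate 1 was the lowest control in both. Of 10 male-predominant genes 4 were tested, with 0 called in limma's test, and Cyp4a12a did not exceed 0.020 FPKM in any library.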
